A study of Mus musculus with 12 samples.

Results

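The genes examined were 33 genes of meningeal fibroblasts and of the fibrillar collagen matrix, taken by symbol from a list that was drawn up with earlier results of these data known, out of 24480 genes in each count table. All 33 were present in both tables. They comprised 5 fibrillar collagen genes (*Col1a1*, *Col1a2*, *Col3a1*, *Col5a1*, *Col5a2*), 6 genes for other collagens (*Col6a1*, *Col6a2*, *Col6a3*, *Col8a1*, *Col12a1*, *Col14a1*), 5 genes for small leucine-rich proteoglycans (*Dcn*, *Lum*, *Ogn*, *Fmod*, *Bgn*) and 7 genes for other matrix and secreted proteins (*Postn*, *Mgp*, *Lamc3*, *Islr*, *Fbln1*, *Fn1*, *Pdgfrl*). The others were *Igf2* and *Igfbp2*, 3 transporter genes (*Slc6a13*, *Slc6a20a*, *Slc22a6*), 2 genes of retinoic acid handling (*Aldh1a2*, *Crabp2*) and 3 transcription factor genes (*Foxc1*, *Foxd1*, *Twist1*).

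The meninges are the membranes that wrap the brain, and their fibroblasts build a collagen-rich layer against the surface of the tissue. Type I, III and V collagens form the fibrils, small leucine-rich proteoglycans such as decorin and lumican bind to the fibrils and affect their assembly, and type VI collagen forms a finer network. Meningeal fibroblasts of the newborn also secrete retinoic acid and IGF2, and *Foxc1* is needed for their normal development. Neurons and glia of the thalamus are not known as producers of type I or type III collagen.

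RNA was sequenced from the dorsolateral geniculate nucleus (dLGN), the visual relay of the thalamus, cut from vibratome slices of mice at P0, the day of birth. There were 12 libraries in 4 groups of 3, each from 3 animals of one genotype pooled. *Sox2* mutants were Sox2 flox/flox with *RORα*-Cre, and their controls were Sox2 flox/flox or Sox2 flox/+ littermates without Cre. *Nr2f1* mutants were Nr2f1 flox/flox with *RORα*-Cre, and their controls were littermates that the study describes as Nr2f1 flox/flox or Nr2f1 flox/+ without Cre, although their labels also name the Cre allele. Cre was inserted at the 3′ end of *Rora*, and the study places recombination in postmitotic cells of the sensory thalamus. The members were read in whole dissected tissue, and which of its cells carried the deletion was not measured here. Bulk libraries of this kind cannot tell fewer cells of a type apart from less RNA per cell. The libraries carry the names CTRL_1, CTRL_2, CTRL_3, MUT_1, MUT_3 and MUT_4 in the *Sox2* line and CTRL_B, CTRL_D, CTRL_E, MUT_A, MUT_B and MUT_C in the *Nr2f1* line. The values of a line are given below in that order, controls first.

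Total counts lay between 39293470 and 50095336 per library. The targeted gene was lower in every mutant library, with *Sox2* at 361 to 382 CPM (counts per 1000000) in controls and 116 to 152 CPM in mutants, and *Nr2f1* at 311 to 380 CPM in controls and 101 to 151 CPM in mutants. Library-specific differences were larger than sampling noise in every group, and no library was a copy of another. CPM here relate a count to its library's size as adjusted by TMM within each line.

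RefSeq places the 33 members on 15 chromosomes of GRCm38.p6, the build on which the study's mm10 is based. *Col3a1* (chromosome 1, 45311538 to 45349706) and *Col5a2* (chromosome 1, 45374331 to 45503282) are neighbours, with 24.6 kb between them. *Dcn* (chromosome 10, 97479500 to 97518163) and *Lum* (chromosome 10, 97565501 to 97572703) lie 47.3 kb apart, and *Col6a2* and *Col6a1* lie 85.2 kb apart, also on chromosome 10. *Col1a1* (chromosome 11, 94936224 to 94953042) and *Col1a2* (chromosome 6, 4505618 to 4541543), whose products join in one type I collagen molecule, are on different chromosomes. *Col8a1* (chromosome 16, 57624256 to 57754737), *Fn1* (chromosome 1, 71585473 to 71653280), *Crabp2* (chromosome 3, 87948693 to 87953372) and *Fmod* (chromosome 1, 134037254 to 134048280) are the members that passed the test in either line.

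Promoter sequences from RefSeq (GRCm38.p6) were matched by symbol for 22 of the 33 members, in 31 entries, and the 250 bases before each start were searched on both strands for the CCAAT box (CCAAT), the TATA box sequence TATAAA, the SOX-type motif AACAAT and the nuclear receptor motif AGGTCA. The sequences below are those of *Col3a1* and *Col1a2*, shown because these fibrillar collagen genes went up and down together over the libraries, and of *Col8a1* and *Fmod*, shown because they passed the test in one line each. Capitals mark matches to any of these 4 motifs.
Col3a1, chr1:45311288-45311537, plus strand: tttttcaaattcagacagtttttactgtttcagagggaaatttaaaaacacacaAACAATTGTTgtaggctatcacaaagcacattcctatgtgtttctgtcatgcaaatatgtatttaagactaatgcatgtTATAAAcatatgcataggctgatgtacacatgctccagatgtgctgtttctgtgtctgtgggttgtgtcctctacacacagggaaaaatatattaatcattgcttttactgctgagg
Col1a2, chr6:4505368-4505617, plus strand: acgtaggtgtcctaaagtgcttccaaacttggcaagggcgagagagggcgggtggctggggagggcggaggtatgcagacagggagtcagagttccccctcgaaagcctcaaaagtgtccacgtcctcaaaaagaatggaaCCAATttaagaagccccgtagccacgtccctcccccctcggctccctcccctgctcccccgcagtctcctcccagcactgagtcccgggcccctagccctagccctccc
Col8a1, chr16:57754738-57754987, minus strand: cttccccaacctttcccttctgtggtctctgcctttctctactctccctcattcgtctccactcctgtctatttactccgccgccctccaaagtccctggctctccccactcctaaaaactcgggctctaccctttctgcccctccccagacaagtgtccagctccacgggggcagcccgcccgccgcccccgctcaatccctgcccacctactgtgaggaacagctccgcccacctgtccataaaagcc
Fmod, chr1:134037004-134037253, plus strand: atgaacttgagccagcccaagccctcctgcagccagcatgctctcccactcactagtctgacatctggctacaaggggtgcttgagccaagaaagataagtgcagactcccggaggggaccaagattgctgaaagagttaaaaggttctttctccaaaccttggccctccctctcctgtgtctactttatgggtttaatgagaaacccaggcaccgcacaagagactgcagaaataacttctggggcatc

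The *Col3a1* window held 1 TATAAA, from base -117 to base -112 before the start, and AACAAT on both strands in 2 overlapping matches from base -196 to base -187. In *Col1a2* the only match was 1 CCAAT from base -109 to base -105, and the *Col8a1* and *Fmod* windows held none of the 4 motifs. The G and C content was 35.2% for *Col3a1*, 62% for *Col1a2*, 60.8% for *Col8a1* and 51.2% for *Fmod*. Among the 31 entries of members, CCAAT was present in 25.8% against 33.8% of the 32851 promoters of the table, TATAAA in 12.9% against 12.4%, AACAAT in 16.1% against 9.42% and AGGTCA in 9.68% against 14%. A match describes the letters of a window and says nothing of binding, and several entries belong to one gene.

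Per length, the members spanned a wide range of levels in control tissue. On a scale of counts per kilobase of the longest transcript, expressed per 1000000 of their sum, *Igf2*, a growth factor, stood at 318 ± 126 (SD, n = 3) in *Sox2* controls, *Igfbp2*, a binding protein of IGFs, at 297 ± 72.0, *Col3a1* at 251 ± 114, *Col1a2* at 225 ± 94.1 and *Col1a1* at 210 ± 94.7. None of these 5 differed from its neighbour in the order beyond their spread. *Bgn* and *Islr* followed at 82.0 ± 25.5 and 80.0 ± 21.6. At the low end, *Col8a1* stood at 2.10 ± 0.173, *Ogn* at 1.44 ± 0.365 and *Col14a1* at 0.597 ± 0.242 on the same scale. In *Nr2f1* controls the same 5 genes led, with *Igf2* at 221 ± 53.6, *Igfbp2* at 204 ± 21.9 and *Col3a1* at 198 ± 41.6. In these length-scaled levels, the fibrillar collagen and IGF genes exceeded the transcription factors *Foxc1* (9.78 ± 3.76 in *Sox2* controls), *Twist1* (3.14 ± 1.22) and *Foxd1* (2.19 ± 0.272).

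The first question was how far pools of one genotype differed in these genes. The 33 members together took between 0.144% and 0.589% of all counts of a library. Their summed level was 2012, 1904 and 3558 CPM in the *Sox2* controls and 2828, 5839 and 3574 CPM in the *Sox2* mutants. CTRL_3 was 1.87-fold above CTRL_2 although both were controls, MUT_3 was 2.06-fold above MUT_1, and CTRL_3 lay above MUT_1. Among the *Nr2f1* libraries the sum was 1444, 2066 and 2155 CPM in controls and 3780, 2049 and 4574 CPM in mutants. MUT_B lay between the controls, while MUT_A and MUT_C lay above every control.

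The order of the pools was shared by most members. Within the *Sox2* controls, CTRL_3 was the highest library for 30 of the 33 members, and within the *Sox2* mutants MUT_3 was the highest for 28 and MUT_1 the lowest for 29. MUT_B was the lowest *Nr2f1* mutant for all 33 members, MUT_C was the highest for 28, and CTRL_B was the lowest control for 29. The median ratio of the highest to the lowest library of a group was 1.85 for the members in *Sox2* controls and 2.03 in *Sox2* mutants, against 1.19 and 1.17 over all genes tested. The corresponding medians were 1.64 and 2.14 for *Nr2f1* controls and mutants, against 1.15 and 1.14 over all genes tested. Members are not independent in this respect, since each pool contributes to all of them. The wide spread of these genes between pools was also among the earlier results known. These ratios therefore describe that spread and do not test it.

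**Figure D1:**
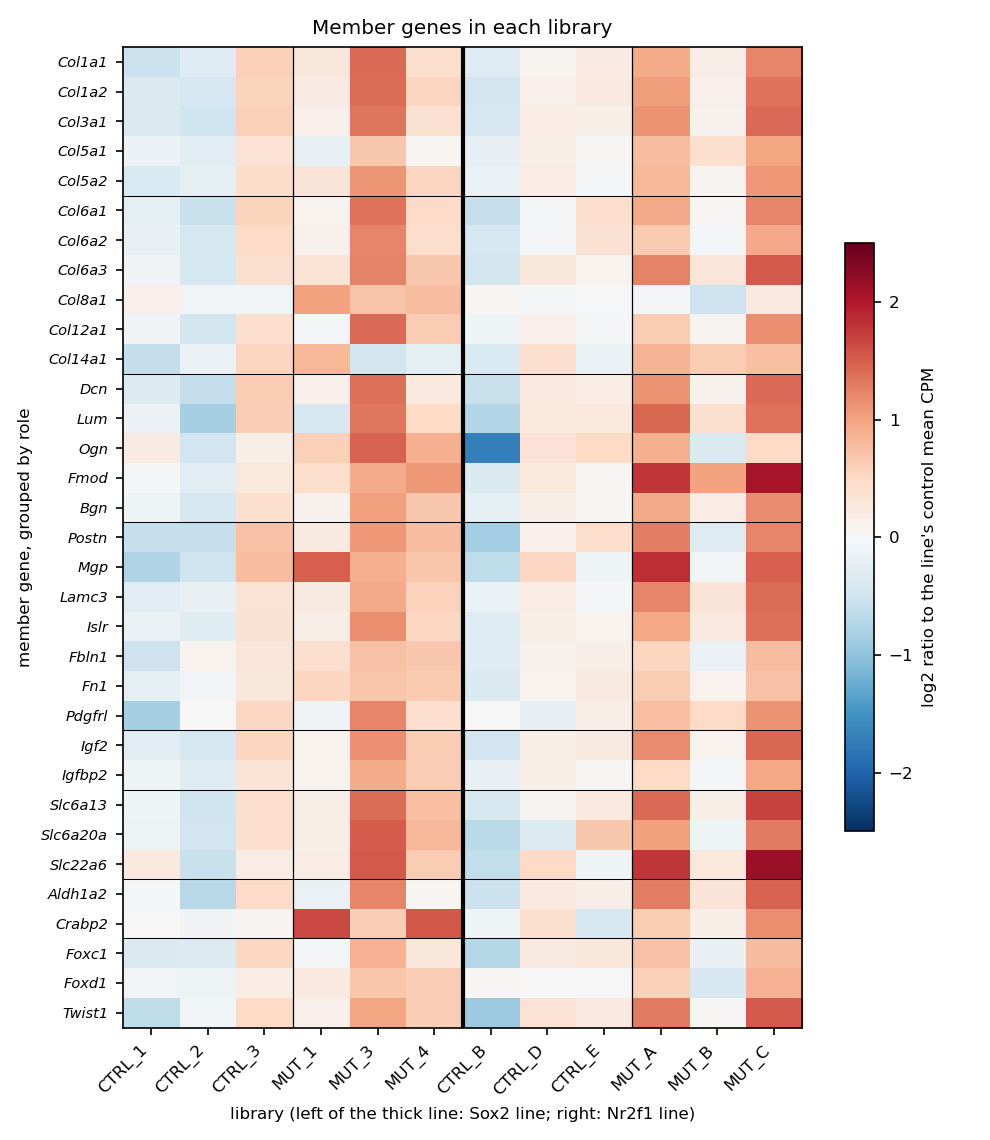
Heat map of the 33 members (rows, grouped by role) in the 12 libraries (columns), coloured by the log2 ratio of CPM to the mean of the controls of the same line. CTRL_3, MUT_3, MUT_4, MUT_A and MUT_C are red and CTRL_1, CTRL_2 and CTRL_B are blue over most rows, whereas MUT_B is close to its controls. *Col8a1*, *Col14a1*, *Mgp* and *Crabp2* are highest in MUT_1 among the *Sox2* mutants.

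The same members moved together across libraries with few exceptions. Over the 12 libraries, each centred on its line, the log2 level of a member and the mean of the other 32 members had a Pearson correlation between 0.81 and 0.99 for 30 members. The exceptions were *Crabp2* (0.60), *Col8a1* (0.46) and *Col14a1* (0.39). These are descriptions over n = 12 libraries that share their dissection, depth and genotype groups. Among 13921 other genes with a mean level of at least 1 CPM, those whose pattern was most like the mean of the members included *Fstl1*, *Hspg2*, *Fcgrt*, *Adgra2*, *Anpep*, *Col4a2*, *Cd248*, *Tgm2* and *Creb3l1*, with correlations from 0.990 to 0.997. *Fstl1* encodes a secreted glycoprotein, and *Hspg2* and *Col4a2* encode perlecan and a type IV collagen chain of basement membranes.

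The second question was whether the members differed between mutants and controls of a line. In *Sox2* mutants, edgeR's quasi-likelihood F-test called 3 of 33 members upregulated at FDR below 0.01 and 0 downregulated, while 3.9% of the 15602 genes tested were called upward and 4.19% downward. The 3 were *Col8a1*, *Fn1* and *Crabp2*. At FDR below 0.05, *Col6a3*, *Ogn*, *Fmod* and *Fbln1* joined them, so that 7 members passed, against 10.4% of all genes upward. Every member had a positive log2 fold change, from 0.16 to 1.35, with a median of 0.69 against 0.00 over all genes tested, of which 50.1% were positive. Because most members shared the order of the pools, their signs are not independent. In 7 members every mutant library lay above every control library, which 19% of all genes did.

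In *Nr2f1* mutants the same test called 1 of 33 members upregulated, *Fmod*, and 0 downregulated, against 1.22% of the 15600 genes tested upward and 1.32% downward. At FDR below 0.05 there were 8 (*Col5a1*, *Col6a3*, *Fmod*, *Bgn*, *Lamc3*, *Islr*, *Pdgfrl* and *Aldh1a2*), against 3.65% of all genes upward. The log2 fold changes were positive for 32 members and lay between -0.07 for *Col8a1* and 1.68 for *Fmod*, with a median of 0.83 against 0.01 over all genes tested, of which 53.1% were positive. Every mutant library lay above every control library for 10 members, against 14.4% of all genes. The members' standard errors were large in both lines, with medians of 0.30 (*Sox2*) and 0.28 (*Nr2f1*) on the log2 scale, against 0.11 and 0.09 over all genes tested. Their median quasi-likelihood dispersion was 4.99 and 4.96, against 0.61 and 0.59. This is edgeR's estimate of the spread between libraries beyond its trend, moderated by the values of all genes tested. It describes the spread already known for these genes.

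**Figure D2:**
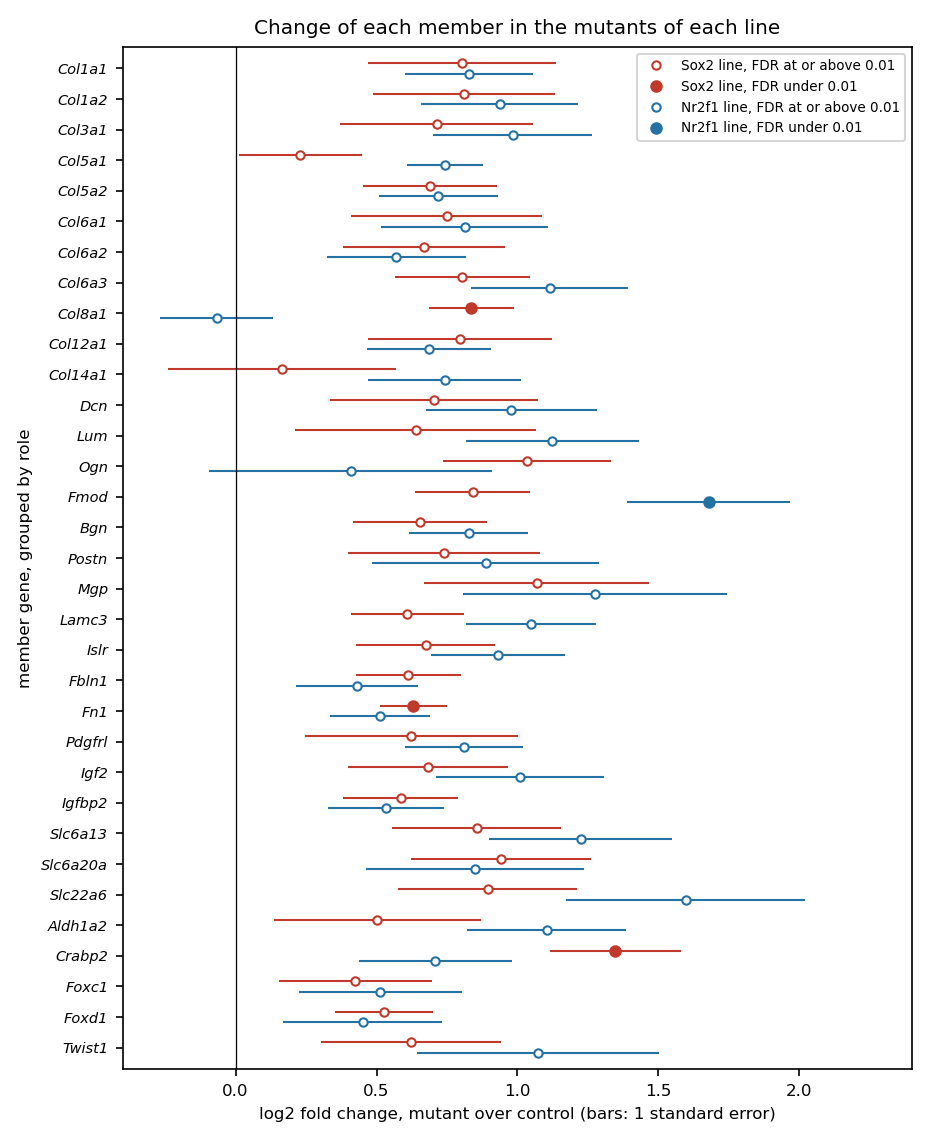
Log2 fold change of mutants over controls (horizontal axis, bars of 1 standard error) for each of the 33 members in the *Sox2* line (red) and the *Nr2f1* line (blue), with filled points for FDR below 0.01. All points but *Col8a1* in the *Nr2f1* line lie right of 0, and 4 are filled, namely *Col8a1*, *Fn1* and *Crabp2* in the *Sox2* line and *Fmod* in the *Nr2f1* line.

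Fibrillar collagens, the main chains of the fibrils, had 0 of 5 members past the threshold in either line. *Col3a1*, the chain of type III collagen, held 329, 299 and 638 CPM in *Sox2* controls and 459, 1068 and 548 CPM in *Sox2* mutants. CTRL_3 exceeded MUT_1 and MUT_4, so that the groups overlapped, and the log2 fold change of 0.71 (SE 0.34) had an edgeR FDR of 0.168. Among *Nr2f1* libraries *Col3a1* held 246, 372 and 364 CPM in controls and 715, 353 and 875 CPM in mutants, a log2 fold change of 0.98 (edgeR FDR 0.0656, SE 0.28). MUT_B lay below 2 of its controls, and the other 2 mutants lay above every control. The type I chains followed *Col3a1*, with log2 fold changes of 0.80 for *Col1a1* and 0.81 for *Col1a2* in the *Sox2* line and of 0.83 and 0.94 in the *Nr2f1* line.

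Type V collagen is a minor partner in the fibrils and limits their width. *Col5a1* was at 81.3, 74.0 and 116 CPM in *Sox2* controls and at 79.2, 145 and 94.1 CPM in *Sox2* mutants, which overlapped widely (log2 fold change 0.23, edgeR FDR 0.491, SE 0.22). Among *Nr2f1* libraries it was at 62.9, 80.1 and 74.4 CPM in controls and at 124, 96.5 and 144 CPM in mutants. There every mutant library, MUT_B included, lay above every control, with a log2 fold change of 0.74 (SE 0.13) and an edgeR FDR of 0.0112, the member nearest to the threshold without passing it. *Col5a2* had log2 fold changes of 0.69 and 0.72 in the *Sox2* and *Nr2f1* lines (edgeR FDR 0.0692 and 0.0714).

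Among the other collagens, *Col8a1*, a short-chain collagen of vessel walls and basement membranes, was the only one of 6 past the threshold, and in the *Sox2* line alone. It was at 3.53, 3.10 and 3.11 CPM in *Sox2* controls and at 6.55, 5.31 and 5.55 CPM in *Sox2* mutants, without overlap. The log2 fold change was 0.84 (edgeR FDR 0.00512, SE 0.15), and its highest mutant was MUT_1, the library that was lowest of its group for 29 members. *Nr2f1* libraries held 3.43, 3.22 and 3.26 CPM in controls and 3.24, 2.30 and 3.91 CPM in mutants, with mutants on both sides of the controls and a log2 fold change of -0.07 (edgeR FDR 0.871, SE 0.20).

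*Col6a2*, a chain of the microfibrillar type VI collagen and the most abundant of the other collagens in CPM, was at 53.6, 45.3 and 85.1 CPM in *Sox2* controls and at 66.0, 143 and 83.4 CPM in *Sox2* mutants. CTRL_3 exceeded MUT_1 and MUT_4, and the log2 fold change was 0.67 (edgeR FDR 0.13, SE 0.29). Its *Nr2f1* levels were 37.7, 49.8 and 66.6 CPM in controls and 80.5, 49.6 and 98.9 CPM in mutants, overlapping through MUT_B (log2 fold change 0.57, edgeR FDR 0.191, SE 0.25). *Col6a1* and *Col6a3*, the other chains of the same protein, had log2 fold changes of 0.75 and 0.80 in the *Sox2* line and of 0.81 and 1.11 in the *Nr2f1* line, and *Col6a3* alone of the 3 had an edgeR FDR below 0.05 (0.0427 and 0.0434). *Col12a1*, a collagen that binds along fibrils, had log2 fold changes of 0.80 and 0.69. *Col14a1*, of the same family, was detected at 0.619 to 2.07 CPM over all libraries, with log2 fold changes of 0.16 (SE 0.40) and 0.74 (SE 0.27). The first turned to -0.33 without MUT_1.

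Proteoglycans gave the largest change of any member in the *Nr2f1* line. *Fmod*, which encodes fibromodulin, a regulator of fibril thickness, was at 0.975, 1.51 and 1.28 CPM in *Nr2f1* controls and at 4.34, 2.51 and 5.27 CPM in *Nr2f1* mutants. Every mutant library exceeded every control, the mutant mean was 3.22-fold the control mean, and the log2 fold change was 1.68 (edgeR FDR 0.00868, SE 0.29). In *Sox2* controls *Fmod* was at 3.53, 2.98 and 4.37 CPM and in *Sox2* mutants at 4.92, 6.87 and 7.68 CPM. These groups did not overlap either, but the log2 fold change of 0.84 (SE 0.20) had an edgeR FDR of 0.0193 and was not called. In the *Nr2f1* line *Fmod* rose more than the members' summed CPM, in which the most abundant members weigh most. Its share of that sum was 0.0676%, 0.0729% and 0.0595% in controls and 0.115%, 0.123% and 0.115% in mutants, MUT_B included. The share comes from the same counts as the fold change and is no separate support for it.

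*Bgn*, biglycan, the most abundant proteoglycan member in CPM, was at 60.1, 49.5 and 88.2 CPM in *Sox2* controls and at 71.4, 134 and 106 CPM in *Sox2* mutants, with CTRL_3 above MUT_1 (log2 fold change 0.65, edgeR FDR 0.0831, SE 0.24). *Nr2f1* libraries had it at 41.4, 54.0 and 50.3 CPM in controls and at 94.0, 55.0 and 110 CPM in mutants. MUT_B barely exceeded the highest control, and the log2 fold change was 0.83 (edgeR FDR 0.0458, SE 0.21). *Ogn*, osteoglycin, was at 1.29, 0.805 and 1.26 CPM in *Sox2* controls and at 1.68, 3.11 and 2.08 CPM in *Sox2* mutants, without overlap (log2 fold change 1.03, edgeR FDR 0.0374, SE 0.30). Its *Nr2f1* levels were 0.238, 0.998 and 1.11 CPM in controls and 1.46, 0.607 and 1.10 CPM in mutants, in which CTRL_B rested on 10 reads and the groups overlapped (log2 fold change 0.41, edgeR FDR 0.673, SE 0.50). *Dcn*, decorin, and *Lum*, lumican, had log2 fold changes of 0.70 and 0.64 in the *Sox2* line and of 0.98 and 1.12 in the *Nr2f1* line, all with an edgeR FDR above 0.05.

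Of the 7 other matrix and secreted genes, *Fn1*, which encodes fibronectin, a glycoprotein that links cells to matrix, passed the test in the *Sox2* line. It was at 95.2, 108 and 137 CPM in *Sox2* controls and at 165, 183 and 180 CPM in *Sox2* mutants. The groups did not overlap, the 3 mutants lay within 1.11-fold of each other, and the log2 fold change was 0.63 (edgeR FDR 0.00623, SE 0.12). *Nr2f1* libraries held 97.2, 133 and 145 CPM in controls and 196, 132 and 208 CPM in mutants, with MUT_B below 2 controls (log2 fold change 0.51, edgeR FDR 0.112, SE 0.18). In one fit over all 12 libraries the *Sox2* line's *Fn1* was no longer called (edgeR FDR 0.0185). Endothelial cells and other mesenchymal cells also produce fibronectin.

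*Lamc3*, a laminin chain of basement membranes, was at 24.9, 26.4 and 38.6 CPM in *Sox2* controls and at 34.9, 57.6 and 44.5 CPM in *Sox2* mutants, overlapping at CTRL_3 and MUT_1 (log2 fold change 0.61, edgeR FDR 0.0583, SE 0.20). *Nr2f1* controls held 19.6, 25.2 and 21.4 CPM and *Nr2f1* mutants 51.6, 27.5 and 57.8 CPM, all mutants above all controls (log2 fold change 1.05, edgeR FDR 0.0256, SE 0.23). The remaining members of this role did not reach an FDR of 0.01. *Mgp*, the matrix inhibitor of calcification, had log2 fold changes of 1.07 (SE 0.40) and 1.27 (SE 0.47) on levels of 0.452 to 2.92 CPM. *Postn*, periostin, had 0.74 and 0.89, *Islr* 0.67 and 0.93, *Fbln1*, fibulin 1, 0.61 and 0.43, and *Pdgfrl* 0.62 and 0.81, for the *Sox2* and the *Nr2f1* line in turn.

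Neither the growth factor pair nor the transporters had a member past the threshold in either line. *Igf2* was at 373, 332 and 655 CPM in *Sox2* controls and at 483, 995 and 704 CPM in *Sox2* mutants, with CTRL_3 above MUT_1 (log2 fold change 0.68, edgeR FDR 0.121, SE 0.29). In the *Nr2f1* line it was at 222, 344 and 364 CPM in controls and at 708, 330 and 837 CPM in mutants, MUT_B again among the controls (log2 fold change 1.01, edgeR FDR 0.0722, SE 0.30). *Igfbp2* had log2 fold changes of 0.59 and 0.53 in the *Sox2* and *Nr2f1* lines. *Igf2* overlaps an antisense gene and *Slc6a20a* has a close paralogue, and the strand setting of the counting is not given in the sources used here, so that their counts are uncertain in this respect.

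*Slc6a13*, a GABA and taurine transporter of the meninges, was at 26.7, 20.5 and 39.3 CPM in *Sox2* controls and at 31.9, 75.9 and 48.4 CPM in *Sox2* mutants (log2 fold change 0.86, edgeR FDR 0.0726, SE 0.30). CTRL_3 exceeded MUT_1. Its *Nr2f1* levels were 14.3, 19.6 and 22.3 CPM in controls and 50.2, 20.8 and 60.4 CPM in mutants, with MUT_B below CTRL_E and the other mutants above every control (log2 fold change 1.22, edgeR FDR 0.0528, SE 0.33). *Slc22a6*, an organic anion transporter gene, had log2 fold changes of 0.89 (SE 0.32) and 1.60 (SE 0.42), and *Slc6a20a*, a proline transporter gene, had 0.94 (SE 0.32) and 0.85 (SE 0.39).

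The 2 genes of retinoic acid handling differed from each other. *Crabp2*, which encodes a cellular retinoic acid binding protein, was at 6.83, 6.41 and 7.16 CPM in *Sox2* controls and at 21.4, 10.5 and 20.03 CPM in *Sox2* mutants. Controls were within 1.12-fold of each other, every mutant lay above them, and the log2 fold change of 1.35 (edgeR FDR 0.00406, SE 0.23) was the largest of any member in that line. Among mutants MUT_3 was the lowest and MUT_1 the highest, as for *Col8a1* and *Col14a1* and unlike the other 9 collagen members. *Nr2f1* controls held 3.59, 5.11 and 2.89 CPM and *Nr2f1* mutants 5.999, 4.31 and 8.67 CPM, with overlap (log2 fold change 0.71, edgeR FDR 0.147, SE 0.27). *Aldh1a2*, the enzyme that makes retinoic acid, was at 19.5, 12.3 and 27.8 CPM in *Sox2* controls and at 17.7, 46.2 and 20.4 CPM in *Sox2* mutants, where only MUT_3 exceeded CTRL_3 (log2 fold change 0.50, edgeR FDR 0.365, SE 0.37). In the *Nr2f1* line it was at 6.52, 11.1 and 10.6 CPM in controls and at 23.0, 11.7 and 26.1 CPM in mutants, all mutants above all controls (log2 fold change 1.10, edgeR FDR 0.0466, SE 0.28).

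The transcription factor genes had 0 of 3 members past the threshold in either line. *Foxc1* was at 13.4, 13.6 and 24.8 CPM in *Sox2* controls and at 16.8, 31.6 and 21.0 CPM in *Sox2* mutants (log2 fold change 0.43, edgeR FDR 0.299, SE 0.27). *Nr2f1* libraries held 7.99, 15.3 and 16.0 CPM in controls and 21.8, 11.6 and 22.8 CPM in mutants (log2 fold change 0.51, edgeR FDR 0.311, SE 0.29). Both lines overlapped, through CTRL_3 and through MUT_B. *Foxd1* had log2 fold changes of 0.53 and 0.45, and *Twist1*, on levels of 0.428 to 3.07 CPM, had 0.62 and 1.07.

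**Figure D3:**
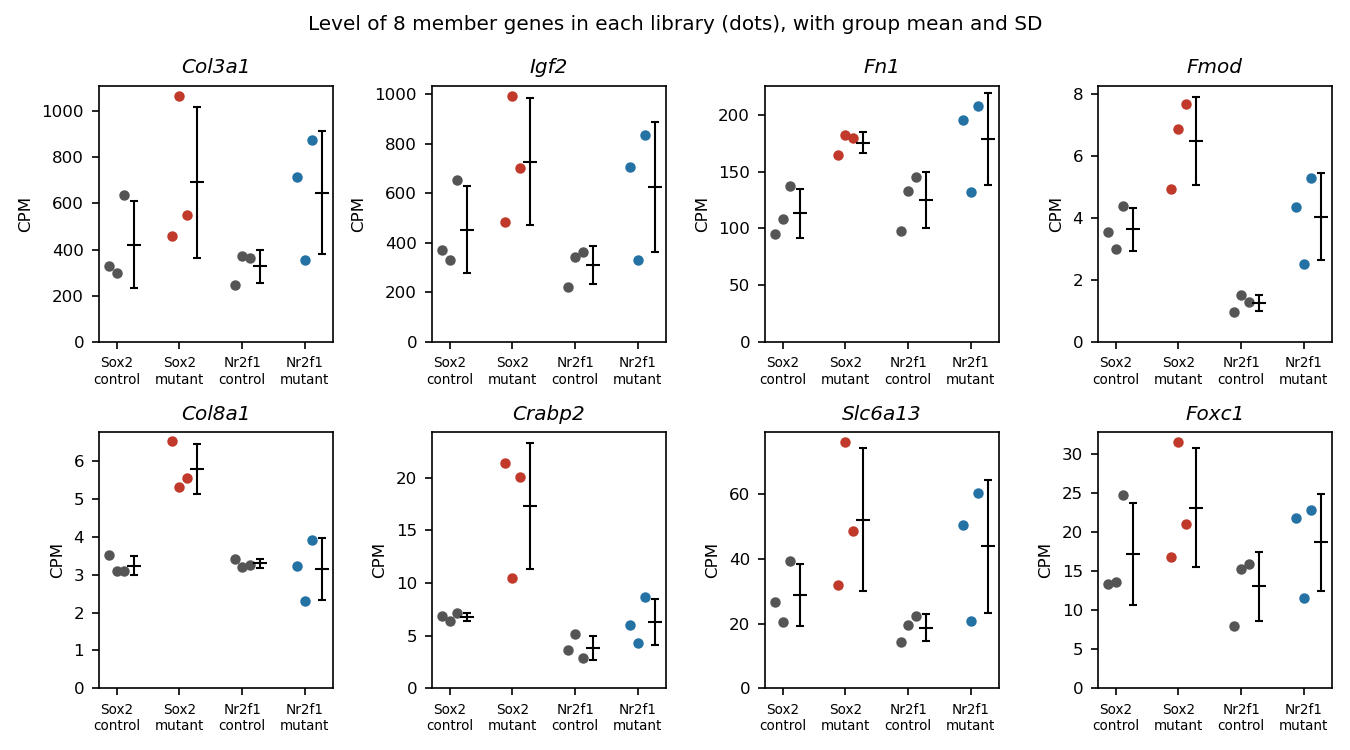
Level in CPM (vertical axes from 0) of *Col3a1*, *Igf2*, *Fn1*, *Fmod*, *Col8a1*, *Crabp2*, *Slc6a13* and *Foxc1* in each library (dots) of the 4 groups, with the mean and SD of 3 libraries beside them. *Col8a1*, *Crabp2* and *Fn1* separate *Sox2* mutants from their controls and *Fmod* separates both pairs of groups, whereas *Col3a1*, *Igf2*, *Slc6a13* and *Foxc1* overlap in both lines.

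Shares of the members' summed CPM describe how single genes ran beside the set, with no test. In the *Sox2* line the shares of 31 members overlapped between mutants and controls, and those of *Col5a1* and *Foxc1* were lower in all mutants. In the *Nr2f1* line 26 overlapped, 3 were higher in all mutants (*Col6a3*, *Fmod* and *Aldh1a2*) and 4 were lower in all mutants (*Col8a1*, *Fbln1*, *Igfbp2* and *Foxd1*). In an exact permutation test of 3 against 3 libraries, complete separation of 1 value has a two-sided p of 0.1. Some members would therefore separate without any difference, and these counts alone do not set a member apart. The share of *Crabp2* in *Sox2* libraries was 0.339%, 0.337% and 0.201% in controls and 0.758%, 0.180% and 0.560% in mutants, so that it overlapped through MUT_3, and those of *Fn1* and *Col8a1* overlapped as well. *Col5a1* took 4.04%, 3.89% and 3.25% of the sum in *Sox2* controls and 2.80%, 2.48% and 2.63% in *Sox2* mutants, all mutants below all controls, although its CPM overlapped. Among *Nr2f1* libraries the share of *Col8a1* was 0.237%, 0.156% and 0.151% in controls and 0.0856%, 0.112% and 0.0856% in mutants, again all mutants below all controls, while its CPM did not follow the rise of the set in MUT_A and MUT_C. A share depends on the other members, since shares add up to the whole.

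The third question was whether the members differed between the 2 lines. A test of the interaction between genotype and line, by edgeR over all 12 libraries, called 0 of 33 members, against 1.44% of the 15989 genes tested, and 2 members had an unadjusted p below 0.05. DESeq2 also called 0. The 2 were *Col8a1*, with a log2 fold change larger by 0.91 (SE 0.25) in the *Sox2* line (edgeR FDR 0.0642), and *Fmod*, with a difference of -0.83 (SE 0.38) for *Sox2* minus *Nr2f1* (edgeR FDR 0.302). For *Crabp2* the difference was 0.64 (edgeR FDR 0.491, SE 0.40), for *Col5a1* -0.51 (edgeR FDR 0.47, SE 0.31) and for *Fn1* 0.12 (edgeR FDR 0.884, SE 0.25). The members called in one line were therefore not shown to differ between the lines.

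The number of calls changed with the pool left out, among the members and over all genes tested. With CTRL_3 left out of the *Sox2* line, 10 members were called upregulated (*Col5a2*, *Col6a3*, *Col8a1*, *Fmod*, *Postn*, *Mgp*, *Lamc3*, *Fbln1*, *Fn1* and *Crabp2*), against 6.86% of all genes tested in that fit. Without CTRL_1, without CTRL_2 or without MUT_4 the count was 0, without MUT_1 it was 1 (*Fmod*) and without MUT_3 it was 2 (*Col8a1* and *Crabp2*). Over all genes tested, the share called upward in these fits was 1.32%, 1.16%, 1.14%, 2.9% and 2.63%, in that order. With MUT_B left out of the *Nr2f1* line, 19 members were called upregulated, against 3.28% of all genes tested in that fit, among them *Col1a1*, *Col1a2*, *Col3a1*, *Dcn*, *Lum*, *Igf2* and *Slc6a13*. Leaving out any of the other 5 *Nr2f1* libraries gave 0, against 0.456% to 0.735% of all genes upward in those fits.

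**Figure D4:**
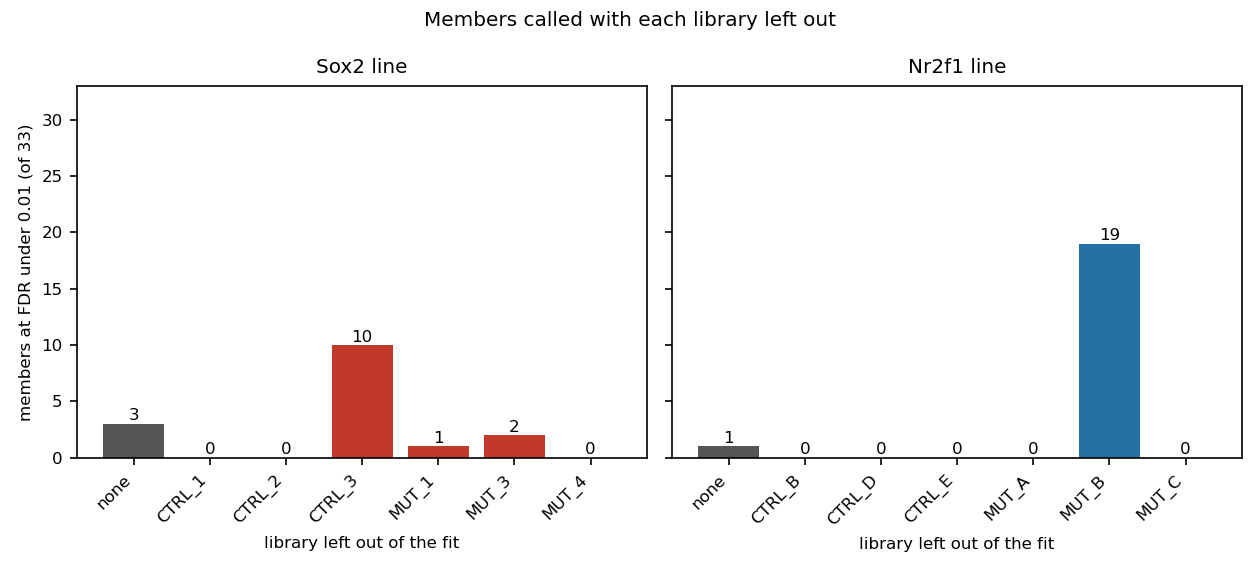
Number of the 33 members at FDR below 0.01 (vertical axis from 0) with all 6 libraries of a line (grey) and with each library left out of the edgeR fit in turn. The count went from 3 to 10 without CTRL_3 in the *Sox2* line and from 1 to 19 without MUT_B in the *Nr2f1* line.

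Genes that make, modify, cross-link, cleave or bind collagen were listed apart from the members, and all 46 were tested in both lines. Their calls, 1 in each line, are to be read beside the 3.9% of all genes called upward in the *Sox2* line and the 1.32% called downward in the *Nr2f1* line. In *Sox2* mutants 1 of 46 was called upregulated, *P4ha3*, a subunit of prolyl 4-hydroxylase, at 7.21, 7.15 and 6.32 CPM in controls and 11.5, 10.1 and 10.05 CPM in mutants (log2 fold change 0.61, edgeR FDR 0.00673), and 0 were downregulated. The median log2 fold change of the 46 was 0.43 and 37 were positive, against 50.1% of all genes tested. Among *Nr2f1* mutants 0 were upregulated and 1 was downregulated, *Tll1*, a procollagen C-proteinase, at 50.5, 42.1 and 47.4 CPM in controls and 25.6, 31.7 and 19.9 CPM in mutants (log2 fold change -0.86, edgeR FDR 0.00795). There the median was 0.23 and 35 were positive, against 53.1% of all genes tested. *Serpinh1*, the collagen chaperone, had log2 fold changes of 0.53 and 0.45, and *Lox*, a cross-linking enzyme, had 0.73 and 1.01, none of them called.

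Markers of other cells of the dissection moved with the same pools. The 10 endothelial markers summed to 335 to 515 CPM in *Sox2* controls and 466 to 595 CPM in *Sox2* mutants, highest in CTRL_3 and MUT_3, and to 314 to 385 CPM in *Nr2f1* controls and 378 to 531 CPM in *Nr2f1* mutants, lowest in CTRL_B and MUT_B. The 11 markers of pericytes and smooth muscle summed to 543 to 768 CPM and 734 to 901 CPM in *Sox2* controls and mutants and to 529 to 603 CPM and 589 to 765 CPM in *Nr2f1* controls and mutants, with the same extremes. The 6 markers of border macrophages, the macrophages of meninges and perivascular spaces, summed to 44.99 to 79.4 CPM and 58.5 to 117 CPM in the *Sox2* line and to 39.7 to 50.3 CPM and 48.6 to 103 CPM in the *Nr2f1* line. Of these 3 lists 0 genes were called in either line, and their median log2 fold changes were 0.37 and 0.41 (endothelial), 0.40 and 0.26 (pericyte and smooth muscle) and 0.69 and 1.03 (border macrophage) for *Sox2* and *Nr2f1*. Without MUT_B, 5 endothelial, 5 pericyte and smooth muscle and 5 border macrophage markers were called in the *Nr2f1* line, and without CTRL_3, 6, 7 and 0 were called in the *Sox2* line. Over all genes tested, 3.28% were called upward without MUT_B and 6.86% without CTRL_3. With all *Sox2* libraries, the border macrophage marker *Cbr2* did not pass the filter and was not tested. No defining marker of any list was at 0, and the part of these cells in the members' values was not tested.

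The 8 markers of the arachnoid barrier and dura summed to 64.5 to 84.6 CPM in *Sox2* controls and 100 to 157 CPM in *Sox2* mutants. *Ptgds*, a prostaglandin D synthase, was the 1 gene called there (upregulated) of 7 tested, since *Slc47a1* did not pass the filter. In the *Nr2f1* line they summed to 36.3 to 57.3 CPM and 59.3 to 119 CPM, with 0 called. The median log2 fold changes of the list were 0.58 and 0.64. The 8 choroid plexus markers ran in another order in the *Sox2* line, at 35.0 to 145 CPM in controls and 55.4 to 182 CPM in mutants. They were lowest there in CTRL_3 and MUT_3, the pools that were highest for most members. Their sums were 182, 55.4 and 144 CPM in MUT_1, MUT_3 and MUT_4, an order that *Crabp2*, *Col8a1* and *Col14a1* shared. In CTRL_1, CTRL_2 and CTRL_3 the sums were 145, 68.7 and 35.0 CPM, an order that these genes did not share. The part of choroid plexus in the members' values was not tested. *Prlr* and *Otx2* of the 8 choroid plexus markers were called upregulated in *Sox2* mutants, and 0 were called in *Nr2f1* mutants. The *Nr2f1* sums were 49.4 to 79.8 CPM in controls and 73.7 to 104 CPM in mutants, and the medians of the 2 lines were 0.80 and 0.75. Among *Nr2f1* libraries the choroid plexus sum was highest in CTRL_E and MUT_C and lowest in MUT_B, as for the members, but its lowest control was CTRL_D. The 6 red blood cell genes had 0 calls in either line, with sums of 281 to 469 CPM and 319 to 493 CPM in the *Sox2* line and of 215 to 313 CPM and 288 to 353 CPM in the *Nr2f1* line, and medians of 0.11 and 0.21. The calls of these lists stand beside 3.9% of all genes called upward in *Sox2* mutants and 1.22% in *Nr2f1* mutants.

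Markers of thalamic neurons, a check of the labelled tissue, were present in every library, and their 10 genes summed to 2792 to 3453 CPM in *Sox2* controls and 2332 to 2646 CPM in *Sox2* mutants, and to 3590 to 3886 CPM and 2948 to 3445 CPM in the *Nr2f1* line. In *Sox2* mutants 5 of them fell (*Slc17a6*, *Lef1*, *Rora*, *Prox1*, *Ntng1*) and 2 rose (*Gbx2*, *Calb2*), and in *Nr2f1* mutants 2 fell (*Lef1*, *Zic1*) and 1 rose (*Prox1*), with medians of -0.66 and -0.15. Of 7 markers of astrocytes and radial glia, 5 rose in *Sox2* mutants and 1 (*Aqp4*) in *Nr2f1* mutants, with medians of 0.60 and 0.15. Over all genes tested, 3.9% were called upward and 4.19% downward in *Sox2* mutants, and 1.22% and 1.32% in *Nr2f1* mutants. Of the 10 genes listed as a check of the meningeal fibroblast label, 0 were called and the medians were 0.67 and 0.98. Of these, 9 are members, and the other, *Pdgfra*, which glial progenitors also express, had log2 fold changes of 0.33 and 0.11.

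**Figure D5:**
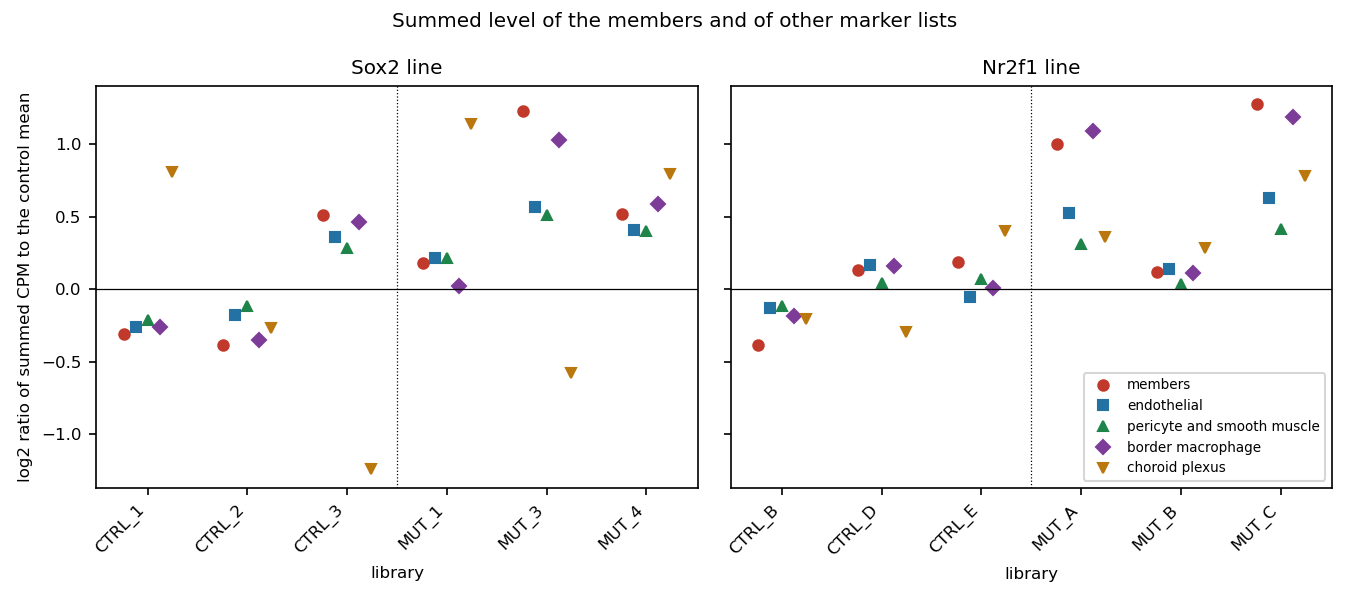
Log2 ratio of summed CPM to the control mean of the line (vertical axis) for the 33 members and for endothelial, pericyte and smooth muscle, border macrophage and choroid plexus markers in each library. Members and border macrophage markers are high together in CTRL_3, MUT_3, MUT_4, MUT_A and MUT_C, vascular markers follow with smaller ratios, and choroid plexus markers are lowest in CTRL_3 and MUT_3.

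The sexes were also mixed unevenly among the pools. *Xist*, expressed from the inactive X chromosome of females, was at 0.189 CPM in CTRL_2 and 0.463 CPM in MUT_1 of the *Sox2* line, which were the lowest pools of their groups for most members, and at 293 to 579 CPM in the other 4. In the *Nr2f1* line *Xist* was at 0.283 CPM in CTRL_E, one of the higher controls for the members, and at 1150 CPM in MUT_A, and the Y-linked *Ddx3y* was at 0 in MUT_A alone. The part of sex in the members' values was not tested.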

How the data were processed

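RNA-seq was measured in 12 libraries of P0 dLGN, each a pool of 3 animals. According to the study's methods, paired reads were mapped by STAR to RefSeq mouse transcripts, and RSEM gave the expression estimates. The authors deposited 1 table of estimated counts for each line, not normalized. These were rounded before testing (7.92% and 7.62% were not whole). Libraries were assigned to groups by column names, which do not pair with single sample titles. The submitters' processing notes name mm10 and STAR without a version.

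Each line's mutants were set against its own controls by edgeR 4.0.16 (R 4.3.3) and its quasi-likelihood F-test. Genes were filtered by filterByExpr with a count minimum of 10 and a total of at least 15, and libraries were scaled by TMM. A gene was called at a Benjamini-Hochberg adjusted p (FDR) below 0.01 over all genes tested, and all 33 members passed the filter. The difference between lines was the interaction of line and genotype. Each standard error (SE) given was the absolute log2 fold change divided by the square root of the F statistic. With 3 pools in each group an exact permutation test of 1 value cannot give a two-sided p below 0.1. The F-test sets the difference between groups against the spread between pools. Variation between the single animals of a pool was not measured. Alternatives were no filter, DESeq2 size factors, upper quartile normalization, DESeq2 1.42.0, robust=TRUE, legacy=FALSE, one fit over 12 libraries, FDR below 0.05, a replicate block and each library left out. The tests were checked on simulated data in which genes varied independently, so that the shared movement of the members between pools was not covered.

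The members, the lists and the rule for named genes were chosen with earlier results of these data known. Values in every library are given for members called in either line, for the most abundant member of each role in CPM, and for the 2 members on each side of the threshold. The marker lists were written from general knowledge. Lengths are those of the longest GENCODE vM21 transcript, which 91.5% and 92.8% of counts had. Correlations used log2(CPM + 0.1).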

Additional observations from a re-analysis of the deposited data

How the results depend on the processing

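In the *Sox2* line 3 members were called, and DESeq2 gave 5, FDR below 0.05 gave 7 and the other choices of filter, scaling and fit gave 3, or 2 in one fit over 12 libraries, where *Fn1* was lost. With each library left out the count ran from 0 to 10. In the *Nr2f1* line 1 member was called, while no filter on low counts gave 3, upper quartile normalization 2, DESeq2 2, legacy=FALSE 0 and FDR below 0.05 gave 8, and with each library left out the count ran from 0 to 19. The test of the difference between lines called 0 members under every alternative run. Chosen after seeing the data, leaving out both *Sox2* libraries numbered 3 gave 21 members, against 8.82% of all genes upward, and leaving out both *Nr2f1* libraries lettered B gave 19, against 2.18%. Signs turned for members that were not called. With each library left out, the log2 fold change ran from -0.057 (without MUT_3) to 0.84 for *Aldh1a2*, from -0.33 (without MUT_1, and -0.068 without CTRL_1) to 0.53 for *Col14a1* and from -0.060 (without MUT_3) to 0.46 for *Col5a1* in the *Sox2* line, and from -0.26 to 0.12 (without MUT_B) for *Col8a1* and from -0.0091 (without CTRL_B) to 0.73 for *Ogn* in the *Nr2f1* line. Without both B libraries *Col8a1* was at 0.13. The collagen machinery list had 0 to 9 calls in the *Sox2* line and 0 to 11 in the *Nr2f1* line with each library left out. In those fits 1.14% to 6.86% and 0.456% to 3.28% of all genes were called upward. The cause of these changes was not tested.

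With the number in the column names as a replicate block, 21 *Sox2* members were called, all upward, against 5.9% of all genes upward. Nothing in the labels says that a number marks a litter or a batch, and the *Sox2* groups share only 2 numbers. Deviations from the group means correlated at 0.22 for CTRL_1 and MUT_1 and at 0.21 for CTRL_3 and MUT_3, and at 0.24 for CTRL_2 and MUT_1. For CTRL_B and MUT_B, which share a letter, the correlation was 0.25, the highest of the 9 pairs in the *Nr2f1* line. No paired analysis was possible in the *Nr2f1* line because its controls and mutants share only the letter B. Counts were low for some members, with a lowest library of 10 for *Ogn*, 18 for *Twist1*, 19 for *Mgp*, 26 for *Col14a1* and 41 for *Fmod*, so that counting error adds to their spread.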
